A study of Mus musculus with 18 samples.

Results

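RN2 cells carrying the rapamycin-switchable base editor seBE were compared with RN2 cells carrying the intact base editor, both kept in vehicle, so in the state in which the switchable editor is not induced. The comparison used the libraries whose titles read RN2_seBE_Veh and RN2_intact_BE_Veh, which are 6 of the 18 libraries of the series, 3 a side. RN2 is a mouse acute myeloid leukemia line, labelled as MLL-AF9 / NrasG12D with the genotype WT, grown in RPMI-1640 with 10% fetal bovine serum. The groups were seBE with vehicle, intact BE with vehicle, and, for reference to the same constructs under drug, seBE with 1 nM rapamycin and intact BE with 1 nM rapamycin. Vehicle or rapamycin was given for 24 h before the cells were sorted on day 5 after lentiviral transduction. Every group is 1 cell line with a transduced construct, and the remaining groups of the series carried an evoA1 catalytic mutant or the Cas9 nickase nCas9. The series asked whether changes in gene expression accompany the toxicity of base editors. Libraries of 1 group are labelled as biological replicates, with no word on whether each had its own culture or transduction, so the p-values reflect the spread among these libraries, which may be technical.

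A cytosine base editor joins a Cas9 nickase to a cytidine deaminase, and a guide RNA brings the pair to a chosen site, where cytosines in a short window are converted. The intact editor here carries evoA1, an evolved APOBEC1 deaminase, in 1 piece and is active at all times. The switchable editor keeps the deaminase split until rapamycin brings its parts together. Rapamycin also binds the immunophilin FKBP12, and that complex inhibits the kinase complex mTORC1.

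PolyA RNA was sequenced as directional libraries, and the 6 vehicle libraries held 14590542 to 20518353 counts. Levels are CPM, counts relative to TMM-scaled library sizes, as mean ± SD over 3 libraries. A log2 fold change is seBE over intact BE, given ± its standard error. Genes were called at a Benjamini-Hochberg adjusted p under 0.05 from edgeR's quasi-likelihood test over all 14985 genes tested. The myeloid leukemia label fitted the transcripts in both groups. Hoxa9, a target of MLL fusions, stood at 305 ± 8.21 CPM in seBE and 299 ± 11.6 CPM in intact BE, and its cofactor gene Meis1 at 50.4 ± 1.40 CPM in seBE and 52.4 ± 1.41 CPM in intact BE. The myeloid transcription factor genes Spi1 and Cebpa, the integrin gene Itgam, the leukocyte phosphatase gene Ptprc and the granule enzyme gene Mpo were all present, at means of 150 CPM or more in seBE and 135 CPM or more in intact BE.

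Library composition differed between the groups under vehicle, and 1 seBE library stood apart from the others of its group. The 13 mitochondrially encoded protein genes took 2.53%, 3.92% and 2.65% of the counts in the seBE libraries, against 1.91%, 1.73% and 1.68% in the intact BE libraries. The slope of a library's deviation in log2 CPM on log2 transcript length was -0.00249, -0.0443 and -0.0115 per doubling of length in seBE, against 0.0621, 0.0463 and 0.0382 in intact BE. Replicate 2 of seBE thus had the highest mitochondrial share and the most negative slope of the 6, and neither measure overlapped between the groups. With 3 libraries against 3, the 2-sided exact permutation test gave p = 0.1 for both measures, the smallest p it can give. Under rapamycin the slopes of the constructs overlapped, at 0.00425 ± 0.0243 in seBE and 0.0413 ± 0.00974 in intact BE (exact permutation p = 0.2). Outside the comparison, the mitochondrial share was 4.32% ± 0.856 in the catalytic mutant and 4.86% ± 0.570 in nCas9. The slopes there were -0.0344 ± 0.00957 in the catalytic mutant and -0.0405 ± 0.0312 in nCas9. These are given as levels, without a test.

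In all, 251 genes rose in seBE, which is 1.68% of those tested, and 347 fell, which is 2.32%, so that 598 genes or 3.99% were called. Changes were small. The median size of the called changes was 0.37 on the log2 scale, against 0.19 over all genes tested, and 16 called genes moved by at least 2-fold, 11 upward and 5 downward. The 3 seBE and 3 intact BE libraries did not overlap for 594 of the 598 called genes, and for 29.4% of all genes tested. The called genes also differed in length and base composition. Their median transcript length was 2398 bases for genes that rose and 5137 bases for genes that fell, against 2959 bases over all genes tested, and their median GC content was 55.7% for the risen, 44.1% for the fallen and 49.3% over all. After the trend of each library's deviation in log2 CPM with transcript length and GC content was removed, 126 genes rose and 205 fell. Leaving out seBE replicate 2 left 8 rises and 44 falls, and leaving out intact BE replicate 1 left 13 rises and 41 falls.

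**Figure D1:**
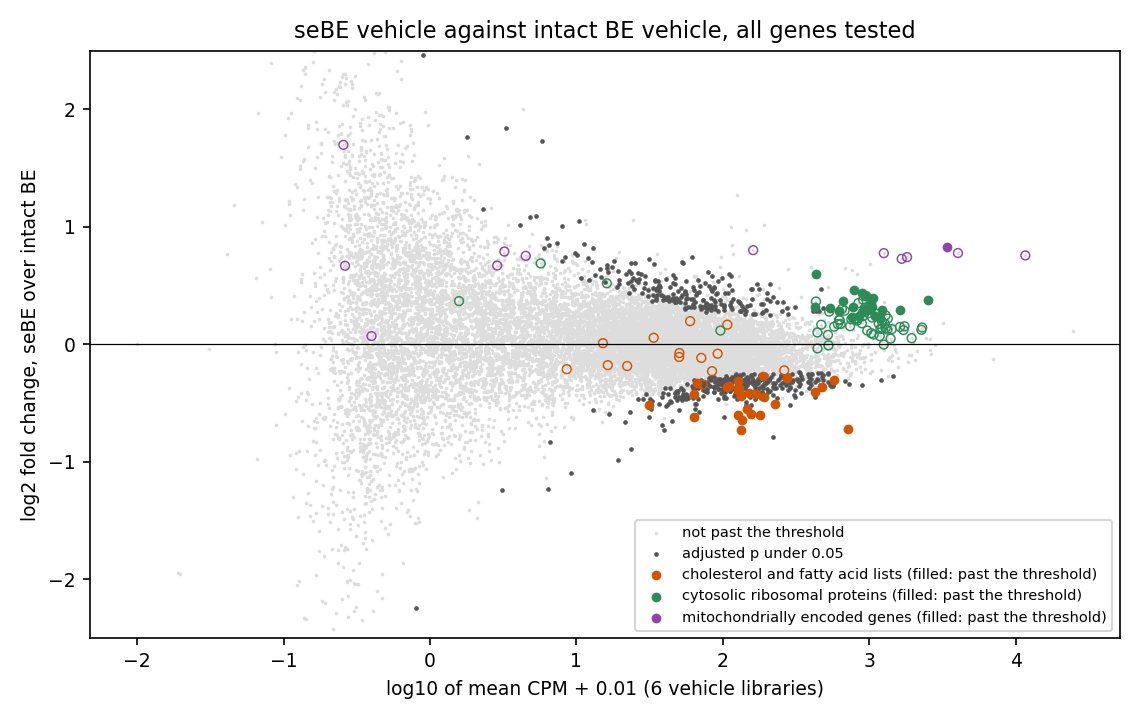
Mean level (log10 of CPM + 0.01 over the 6 vehicle libraries) against log2 fold change, seBE over intact BE, for each gene tested; dark points passed the adjusted p threshold of 0.05, and coloured points are members of 3 gene lists, filled where called. The 26 called members of the lipid lists all lie below 0, the 24 called ribosomal protein genes above it, and 56 genes with changes beyond 2.5 in size are outside the axis.

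Calls that did not depend on any one library or setting were mostly falls. Of all genes, 37 were called in the analysis as described and under each of 15 alternatives, 32 of them lower and 5 higher in seBE. Of the 41 tested genes of cholesterol and fatty acid synthesis, 15 were among these 37. The 5 that rose, chosen after their values were seen, were Tagap1, Ppcdc, Pgls, Iffo1 and Stk11.

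Genes of sterol synthesis fell together in seBE. Animal cells build cholesterol from acetyl-CoA through mevalonate, isoprenoids, squalene and lanosterol, and the transcription factor SREBP2 raises most of the enzymes of this route when sterols in the endoplasmic reticulum run low. Rapidly dividing leukemia cells use the route for membranes and for isoprenoid anchors of proteins such as Ras. Of 26 listed genes of this route and its regulation, all of them tested, 18 fell and 0 rose, with a median log2 fold change of -0.36, against 2.32% of all genes falling and a median of 0.01 over all. The seBE and intact BE libraries did not overlap for any of the 18 except Fdft1 and Lss. Of the other 8 members, 5 had a change below 0.

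The promoters of 4 of the members that fell are shown for the elements through which sterol genes are known to be controlled, sterol regulatory elements and the CCAAT box bound by NF-Y. All 4 hold CCAAT, and Hmgcs1 and Hsd17b7 also hold a match to a sterol element pattern, which Idi1 and Cyp51 do not. Each is 250 bases before to 50 after the RefSeq gene start in GRCm38.p6, an older build than the one the authors aligned to, written 5′ to 3′ on the strand of the gene, with CCAAT on either strand and matches to TCACNCCA or TCACNNCAC in capitals.
Idi1, chr13:8885356-8885655, plus strand: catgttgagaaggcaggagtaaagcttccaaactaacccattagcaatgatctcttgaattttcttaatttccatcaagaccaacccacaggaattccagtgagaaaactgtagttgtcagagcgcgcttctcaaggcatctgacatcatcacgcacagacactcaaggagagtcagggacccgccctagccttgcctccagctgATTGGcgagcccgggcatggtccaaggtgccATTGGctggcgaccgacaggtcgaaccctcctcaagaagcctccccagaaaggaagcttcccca
Cyp51, chr5:4104648-4104947, minus strand: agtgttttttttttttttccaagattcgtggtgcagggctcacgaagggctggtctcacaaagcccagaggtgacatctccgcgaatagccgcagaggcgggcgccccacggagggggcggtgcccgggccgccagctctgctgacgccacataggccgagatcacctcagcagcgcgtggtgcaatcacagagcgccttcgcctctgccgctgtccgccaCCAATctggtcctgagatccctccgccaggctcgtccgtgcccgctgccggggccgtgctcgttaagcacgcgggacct
Hmgcs1, chr13:119690101-119690400, plus strand: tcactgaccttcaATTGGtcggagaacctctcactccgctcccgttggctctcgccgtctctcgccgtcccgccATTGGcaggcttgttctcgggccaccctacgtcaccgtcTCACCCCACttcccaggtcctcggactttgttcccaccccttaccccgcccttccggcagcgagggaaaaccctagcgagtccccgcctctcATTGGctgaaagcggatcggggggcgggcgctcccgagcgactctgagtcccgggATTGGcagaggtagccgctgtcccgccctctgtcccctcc
Hsd17b7, chr1:169969156-169969455, minus strand: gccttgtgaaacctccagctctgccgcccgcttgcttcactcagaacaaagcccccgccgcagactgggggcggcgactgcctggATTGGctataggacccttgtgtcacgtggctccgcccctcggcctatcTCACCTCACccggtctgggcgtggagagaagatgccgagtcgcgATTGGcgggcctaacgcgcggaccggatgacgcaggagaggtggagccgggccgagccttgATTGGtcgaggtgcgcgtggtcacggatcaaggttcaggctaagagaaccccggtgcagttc
CCAAT stood 2 times in the Idi1 window, 1 time in Cyp51, 4 times in Hmgcs1 and 3 times in Hsd17b7, and the sterol element patterns matched 1 site each in Hmgcs1 and Hsd17b7. RefSeq windows were found for 18 of the 26 sterol genes and for 9917 of the tested genes. Motifs were searched on both strands. CCAAT stood in 16 of the 18 windows (88.9%), against 43.1% of the 9917. GGGCGG, bound by Sp1, stood in 17 of the 18 (94.4%), against 66.9%. TCACNCCA stood in 3 of 18 (16.7%), against 4.62%, and TCACNNCAC, which can overlap it, in 4 of 18 (22.2%), against 4.44%. CACGTG stood in 5 of 18 (27.8%), against 11.7%, while TCACGTGA, which contains it, stood in 0 of 18, against 2.24%. Of 12 windows of fatty acid synthesis and desaturation genes, 9 held CCAAT (75.0%), 8 GGGCGG (66.7%) and 2 CACGTG (16.7%). TCACNCCA, TCACNNCAC and TCACGTGA stood in 0 of these 12. A match says only that these letters are in the window, and a missing match does not show that a window lacks a sterol element.

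At the head of the route, Acat2, which joins acetyl-CoA units, had 93.5, 107 and 102 CPM in seBE, against 139, 161 and 160 CPM in intact BE. Hmgcs1, the next enzyme, had 145, 144 and 141 CPM in seBE, against 215, 231 and 206 CPM in intact BE. Both genes were lower in every seBE library than in any intact BE library, at 0.657 of the intact BE level for Acat2 and 0.658 for Hmgcs1. The log2 fold change was -0.61 ± 0.0957 for Acat2 (adjusted p = 0.000353) and -0.60 ± 0.0897 for Hmgcs1 (adjusted p = 0.000184).

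In the mevalonate and isoprenoid steps the change was uneven. Mvk, Pmvk and Fdps, which act on mevalonate and on isoprenoid pyrophosphates, had log2 fold changes of 0.06 ± 0.144, -0.07 ± 0.180 and 0.01 ± 0.162 and did not pass the test. Idi1, which isomerises isopentenyl pyrophosphate between them, had the lowest fold change of the list. It had 93.7, 94.2 and 112 CPM in seBE, against 170, 172 and 158 CPM in intact BE, a log2 fold change of -0.73 ± 0.101 (adjusted p = 7.86e-05). Mvd, whose product Idi1 uses, stood at 64.4 ± 8.99 CPM in seBE and 81.6 ± 13.5 CPM in intact BE, with an adjusted p of 0.163.

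From squalene on, most steps fell. Sqle, the squalene epoxidase, had 128, 126 and 137 CPM in seBE, against 169, 174 and 178 CPM in intact BE (log2 fold change -0.42 ± 0.0789, adjusted p = 0.00274). Cyp51, which removes the first methyl group of lanosterol, had 182, 198 and 184 CPM in seBE, against 264, 280 and 261 CPM in intact BE (log2 fold change -0.51 ± 0.0729, adjusted p = 9.85e-05). Hsd17b7, a later 3-keto reductase of the route, had 48.1, 48.0 and 53.3 CPM in seBE, against 73.9, 81.4 and 74.5 CPM in intact BE (log2 fold change -0.62 ± 0.104, adjusted p = 0.000739). These values left a clear gap between the groups for each enzyme. Fdft1, which makes squalene, also fell, as did Lss, Msmo1, Nsdhl, Sc5d and Dhcr7, which make and process lanosterol and later sterols. The log2 fold changes of these genes, Fdft1 included, ran from -0.42 to -0.36. Tm7sf2 and Ebp, at -0.19 ± 0.158 and -0.11 ± 0.0925, did not pass the test.

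Regulators and transport genes of the same route fell in part. Insig1, an SREBP2 target that holds SREBP in the endoplasmic reticulum, had 110, 115 and 113 CPM in seBE, against 147, 158 and 152 CPM in intact BE (adjusted p = 0.000858). Stard4, a sterol carrier, had 118, 114 and 125 CPM in seBE, against 186, 179 and 159 CPM in intact BE (log2 fold change -0.55 ± 0.0829, adjusted p = 0.000184). The transcripts of the factor itself and its escort did not pass the test, Srebf2 at -0.22 ± 0.0781 (adjusted p = 0.0939) and Scap at 0.20 ± 0.0929 (adjusted p = 0.241). Of 7 tested genes of cholesterol efflux, Apoe rose and Lpcat3 fell (14.3% each way, against 1.68% and 2.32% of all genes tested).

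Fatty acid synthesis and desaturation genes fell as well, 8 of 15 tested (53.3%, against 2.32% of all genes tested). None rose, and the median log2 fold change was -0.31. Scd2, a stearoyl-CoA desaturase gene, had 528, 582 and 512 CPM in seBE, against 839, 975 and 861 CPM in intact BE, a log2 fold change of -0.72 ± 0.0788 (adjusted p = 6.31e-07). Fads2, the delta-6 desaturase, had 99.3, 120 and 98.3 CPM in seBE, against 144, 187 and 165 CPM in intact BE, a log2 fold change of -0.64 ± 0.0888 (adjusted p = 7.86e-05). Elovl6, which lengthens palmitate, had 125, 124 and 122 CPM in seBE, against 192, 183 and 184 CPM in intact BE, a log2 fold change of -0.59 ± 0.0907 (adjusted p = 0.000234). No seBE library reached an intact BE library for any of these. Acly, which supplies cytosolic acetyl-CoA, stood at 367 ± 24.9 CPM in seBE and 486 ± 8.98 CPM in intact BE (log2 fold change -0.41 ± 0.0667, adjusted p = 0.000561). Acaca, Fasn, Elovl5 and Acsl3, which carboxylate, condense, lengthen and activate, were the other members that fell, with log2 fold changes of -0.45, -0.30, -0.31 and -0.52. Acsl3 shares exon positions with Utp14b on the same strand, so its count is uncertain. Srebf1, the factor gene of this branch, had a log2 fold change of -0.08 ± 0.101 (adjusted p = 0.778).

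The count of sterol genes that fell was 10 to 13 when each library was left out in turn and 17 after the length and GC trend was removed, and the count of fatty acid genes was 5 to 8 and 7. The summed level of the 26 sterol genes was 2911, 3111 and 2921 CPM in seBE, against 3725, 4065 and 3880 CPM in intact BE. In the groups outside the comparison it was 2808 ± 112 CPM in seBE with rapamycin, 3292 ± 207 CPM in intact BE with rapamycin, 3179 ± 71.1 CPM in the catalytic mutant and 3363 ± 102 CPM in nCas9. Intact BE with vehicle thus had the highest mean of the 6 groups, and its lowest library lay above the highest library of each of the other 5. The 15 fatty acid genes gave the same picture, with 2326 ± 102 CPM in seBE and 3152 ± 107 CPM in intact BE under vehicle, and 2157 to 2597 CPM as group means in the other 4 groups. These sums across the other groups are given as levels, without a test.

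**Figure D2:**
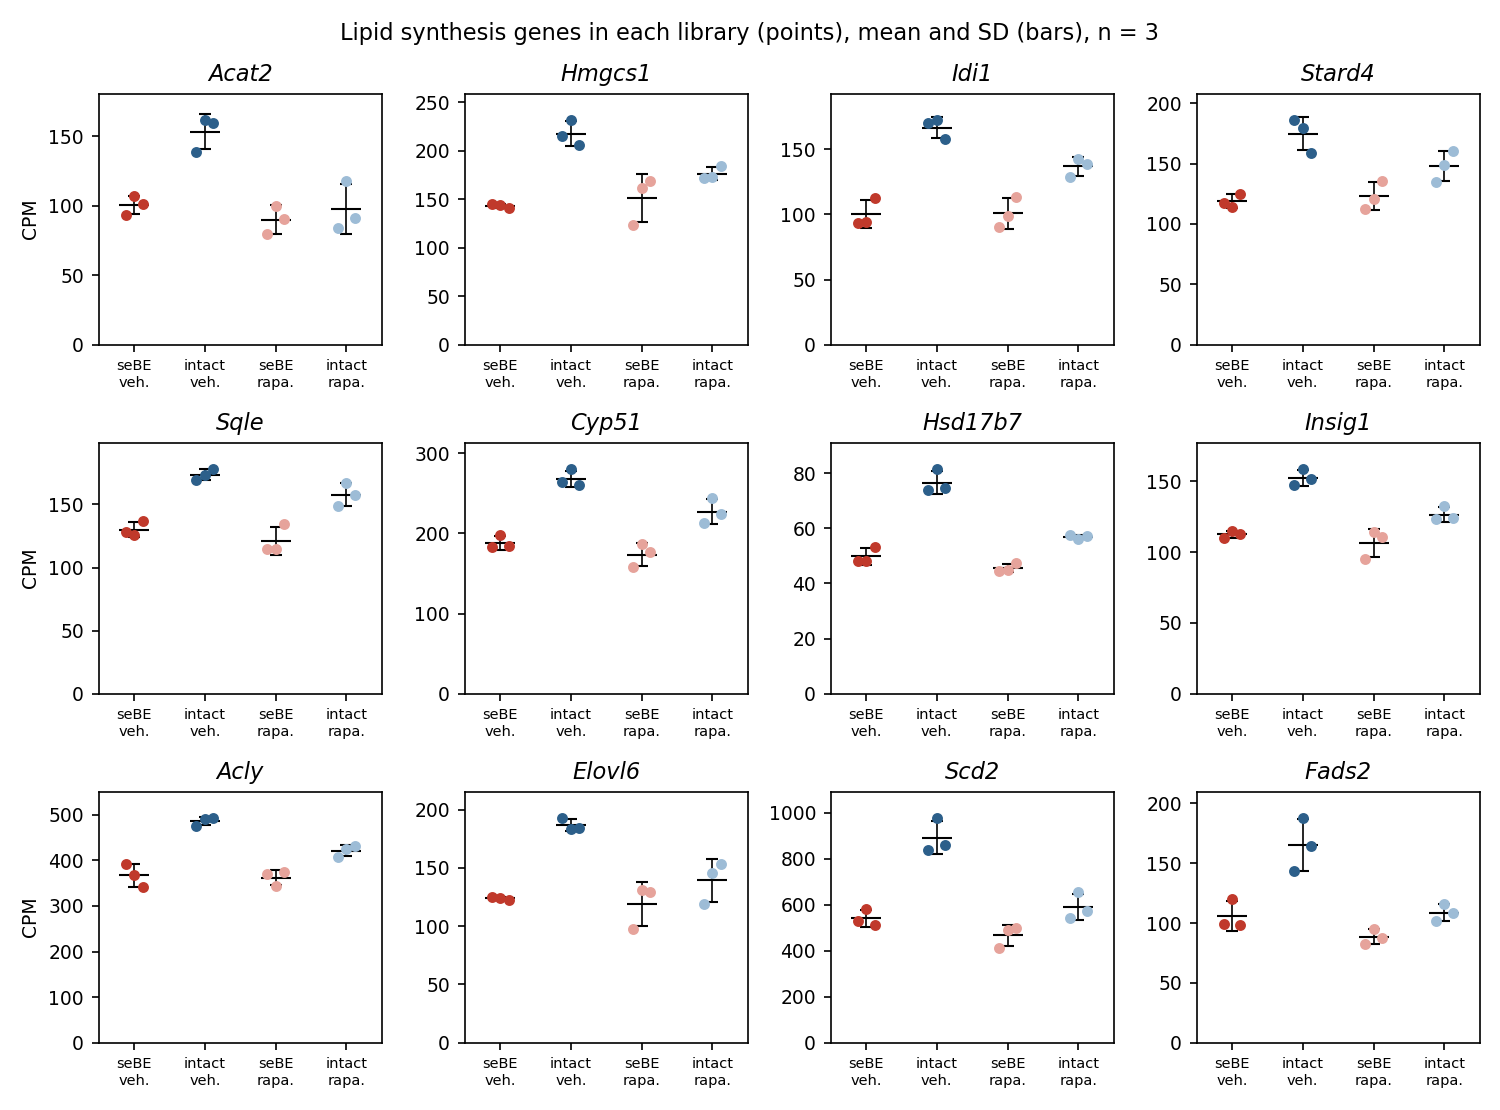
CPM of 12 genes of cholesterol and fatty acid synthesis in each library (points), with mean and SD (bars, n = 3), for seBE and intact BE under vehicle and then under rapamycin; the axes start at 0. In every panel the 3 seBE vehicle libraries lie below the 3 intact BE vehicle libraries.

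Under rapamycin, in 6 other libraries, 9 of the 26 sterol genes fell in seBE against intact BE, none rose, and the median log2 fold change was -0.23. In that comparison 2.66% of all genes tested fell. Of the 18 genes that fell under vehicle, 8 fell under rapamycin as well and all 18 had a fold change below 0 there. Idi1 had 90.3, 99.0 and 114 CPM in seBE with rapamycin, against 129, 143 and 139 CPM in intact BE with rapamycin. Cyp51 had 158, 187 and 176 CPM in seBE with rapamycin, against 213, 245 and 224 CPM in intact BE with rapamycin. For both genes the seBE libraries of the 2 treatments overlapped, while the intact BE libraries were lower with rapamycin than with vehicle, a difference given without a test. Of the 28 genes (0.187% of those tested) whose construct difference itself differed between the arms, 0 were in either lipid list. At so low a share, 0 among 41 genes does not show that the difference was alike in both arms.

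Outside lipid synthesis, the called genes with the largest falls were of mixed function, and some are linked to other blood lineages. Tcf4, the transcription factor gene that drives plasmacytoid dendritic cells, had 156, 153 and 172 CPM in seBE, against 276, 278 and 278 CPM in intact BE. Its log2 fold change was -0.79 ± 0.0766 (adjusted p = 5.84e-08), the lowest adjusted p of all genes tested. Pld4, an endolysosomal exonuclease gene also high in plasmacytoid cells, had 30.6, 32.5 and 27.2 CPM in seBE, against 45.1, 49.3 and 54.7 CPM in intact BE (log2 fold change -0.73 ± 0.121, adjusted p = 0.000615). Both groups were tight and far apart. The other markers of plasmacytoid and B cells did not follow, since their sum was 62.1 to 80.5 CPM in seBE and 54.3 to 65.5 CPM in intact BE, and Siglech, Ms4a1, Pax5 and Ebf1 had no counts. The whole list of 14 summed to 261 to 266 CPM in seBE and 376 to 398 CPM in intact BE. In bulk RNA, fewer cells of a type and less RNA per cell cannot be told apart.

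Cd28, the T cell costimulatory receptor gene, had 125, 126 and 133 CPM in seBE, against 202, 194 and 176 CPM in intact BE, a log2 fold change of -0.58 ± 0.0809 (adjusted p = 7.86e-05). Of 15 markers of T and NK cells it alone was called, Cd3e, Cd3g, Cd8a, Cd2, Ncr1 and Gzma had no counts, and the 13 markers other than Cd28 and Nkg7 summed to 1.31 to 2.19 CPM in seBE and 1.13 to 1.71 CPM in intact BE. Ccr2, the monocyte chemokine receptor gene, had 129, 121 and 132 CPM in seBE, against 202, 176 and 168 CPM in intact BE, a log2 fold change of -0.52 ± 0.0898 (adjusted p = 0.000993). Cybb, the catalytic subunit gene of the phagocyte oxidase, had 56.8, 52.7 and 54.2 CPM in seBE, against 90.8, 72.0 and 70.0 CPM in intact BE (adjusted p = 0.00657). Its partner gene Cyba moved the other way, at 277 ± 20.2 CPM in seBE and 228 ± 22.5 CPM in intact BE (log2 fold change 0.28 ± 0.0766, adjusted p = 0.0318), but with the length and GC trend removed its log2 fold change was -0.00983 (adjusted p = 0.976). Of 37 tested genes of mature myeloid cells, 3 rose (8.11%) and 2 fell (5.41%), against 1.68% and 2.32% of all genes tested. The other genes that rose were Csf2ra, a subunit gene of the GM-CSF receptor, and Ncf4, another oxidase subunit gene.

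Of 24 tested genes of the MLL-AF9 program, 1 rose (4.17%) and 2 fell (8.33%), against 1.68% and 2.32% of all genes tested. Kit, the stem cell factor receptor gene, stood at 119 ± 5.99 CPM in seBE and 149 ± 5.34 CPM in intact BE (log2 fold change -0.33 ± 0.0785, adjusted p = 0.0169). Mef2c, a transcription factor gene of leukemia stem cells, stood at 299 ± 23.5 CPM in seBE and 379 ± 25.5 CPM in intact BE (log2 fold change -0.34 ± 0.083, adjusted p = 0.0192). Hoxa5 rose, at 35.6 ± 4.86 CPM in seBE and 25.8 ± 2.84 CPM in intact BE (log2 fold change 0.46 ± 0.125, adjusted p = 0.0318). These 3 calls were lost without seBE replicate 2 and without intact BE replicate 1. Nras, the gene whose mutant form drives the line, rose, with 686, 814 and 708 CPM in seBE, against 622, 549 and 562 CPM in intact BE (log2 fold change 0.35 ± 0.0821, adjusted p = 0.0151). Without seBE replicate 2 or without intact BE replicate 2 it no longer passed.

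Among the largest falls of genes with at least 5 CPM in the higher group, B3gnt5, a glycolipid glycosyltransferase, had 5.13, 4.62 and 7.67 CPM in seBE, against 12.9, 11.7 and 12.7 CPM in intact BE, 0.469 of its level (adjusted p = 0.00778). Arfgef3, an Arf exchange factor family gene, had 15.9, 10.3 and 12.5 CPM in seBE, against 29.5, 24.6 and 22 CPM in intact BE (log2 fold change -0.98 ± 0.167, adjusted p = 0.000753). Arfgef3 stayed called with any of the 6 libraries left out, and B3gnt5 did not without seBE replicate 2 or without intact BE replicate 1. Echdc1, which disposes of ethylmalonyl-CoA formed by fatty acid synthesis, stood at 35.0 ± 1.26 CPM in seBE and 55.2 ± 1.96 CPM in intact BE (adjusted p = 0.000561). Scpep1, a serine carboxypeptidase, had 29.9, 32.1 and 26.9 CPM in seBE, against 43.4, 51.3 and 48.1 CPM in intact BE (adjusted p = 0.000561). Glra3, Dse, Amot and Slc39a10 were the remaining largest falls, with log2 fold changes from -0.89 to -0.62.

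Aldh1a7, an aldehyde dehydrogenase gene close in sequence to Aldh1a1, was named after its values were seen because no read was counted for it in seBE. It had 0, 0 and 0 counts in seBE, against 16, 32 and 40 counts in intact BE. Against a limit of 3 counts over the 3 seBE libraries together, its level was at least 29.9-fold lower in seBE (adjusted p = 0.000184). It also had 0 counts in each seBE library with rapamycin, against 9, 8 and 2 counts in intact BE with rapamycin. The catalytic mutant had 10, 14 and 8 counts and nCas9 had 75, 89 and 68. A low-count gene of this kind is open to how reads shared with a near copy were handled, which is not given in the sources used here.

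Among called genes of at least 5 CPM in the higher group, the 3 largest rises came at low levels. Ovgp1, a secreted glycoprotein of the oviduct, had 5.61, 10.1 and 5.87 CPM in seBE, against 3.46, 3.71 and 2.95 CPM in intact BE (log2 fold change 1.09 ± 0.286, adjusted p = 0.0281). Fam189b had 11.6, 15.7 and 15.1 CPM in seBE, against 6.07, 5.73 and 8.57 CPM in intact BE (log2 fold change 1.05 ± 0.208, adjusted p = 0.00424). Tmem82 had 10.1, 12 and 9.56 CPM in seBE, against 3.86, 5.67 and 6.27 CPM in intact BE (log2 fold change 1.00 ± 0.228, adjusted p = 0.0121). Their lack of overlap was a condition of the choice, and all 3 lost their call without intact BE replicate 1. Tagap1, related to a GTPase activator of T cells, rose under every alternative, with 67.8, 94.0 and 70.3 CPM in seBE, against 47.9, 47.4 and 43.2 CPM in intact BE (log2 fold change 0.75 ± 0.116, adjusted p = 0.00038). Lgals4, Slc25a47, Apoe, Gdpd3, H2-Q4, Itga2b, Hyi, Zfp276, Vps9d1, Atxn7l2 and the abundant mt-Nd1 rose by 0.71 to 0.90 on the log2 scale. Itga2b codes for a platelet integrin subunit, and the 9 megakaryocyte markers that include it summed to 11 to 17.9 CPM in seBE and 7.20 to 10.1 CPM in intact BE. Most of that sum was Itga2b itself. The 7 markers other than Itga2b and Vwf summed to 0.137 to 0.415 CPM in seBE and 0.284 to 0.472 CPM in intact BE, with no counts for Ppbp and Gp6. H2-Q4 belongs to a family of near-identical class I genes, and Zfp276 and Vps9d1 overlap on opposite strands, so their counts are uncertain where the strand setting is not known.

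The other 4 genes that rose under every alternative did so by 0.51 to 0.69 on the log2 scale. Stk11, the tumour suppressor kinase LKB1, had 189, 227 and 188 CPM in seBE, against 127, 142 and 155 CPM in intact BE (log2 fold change 0.51 ± 0.0905, adjusted p = 0.00124). Ppcdc, an enzyme of coenzyme A synthesis, had 61.1, 79.9 and 56.6 CPM in seBE, against 40.3, 39.9 and 42.2 CPM in intact BE (log2 fold change 0.69 ± 0.107, adjusted p = 0.000301). Pank3, the pantothenate kinase that starts coenzyme A synthesis, went the opposite way, with 117, 116 and 127 CPM in seBE, against 185, 166 and 155 CPM in intact BE (log2 fold change -0.49 ± 0.0859, adjusted p = 0.00111). Pgls, of the pentose phosphate route, and Iffo1, of the nuclear matrix, had log2 fold changes of 0.58 ± 0.103 and 0.54 ± 0.0954. Both share exon positions with a neighbour, Pgls with Fam129c on the same strand and Iffo1 with Gapdh on the other.

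Part of the ribosomal protein genes rose under vehicle, and the number of calls depended on single libraries while the median of the list moved less. Cytosolic ribosomal proteins are the shared parts of every ribosome, and their transcripts are short and abundant. Of 79 tested, 24 rose and 0 fell, with a median log2 fold change of 0.23, against 1.68% of all genes rising. Rpl26 had 963, 1150 and 959 CPM in seBE, against 755, 759 and 752 CPM in intact BE (log2 fold change 0.44 ± 0.0802, adjusted p = 0.00181). Rpsa had 2744, 3130 and 2676 CPM in seBE, against 2030, 2242 and 2315 CPM in intact BE (log2 fold change 0.38 ± 0.0723, adjusted p = 0.00304). In both genes seBE replicate 2 was the highest library, and the groups did not overlap. Without that library 0 of the 79 were called, and without intact BE replicate 1 there were 2, while the median lay between 0.18 and 0.25 with any of the 6 libraries left out. After removal of the length and GC trend 12 rose, with a median of 0.10. The list took 7.94%, 8.66% and 7.95% of the counts in seBE, against 6.79%, 7.12% and 7.16% in intact BE (exact permutation p = 0.1). Under rapamycin its share was 8.07% ± 0.330 in seBE and 8.01% ± 0.245 in intact BE (exact permutation p = 0.9). There 0 rose and 1 fell, against 2.04% and 2.66% of all genes tested, with a median of 0.00. The difference between the arms passed the test for 0 of the 79, against 0.187% of all genes tested. None of these genes is thus shown to differ in 1 arm only. Reads of ribosomal protein genes can be shared with their many processed pseudogenes, and how such reads were counted is not given in the sources used here.

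**Figure D3:**
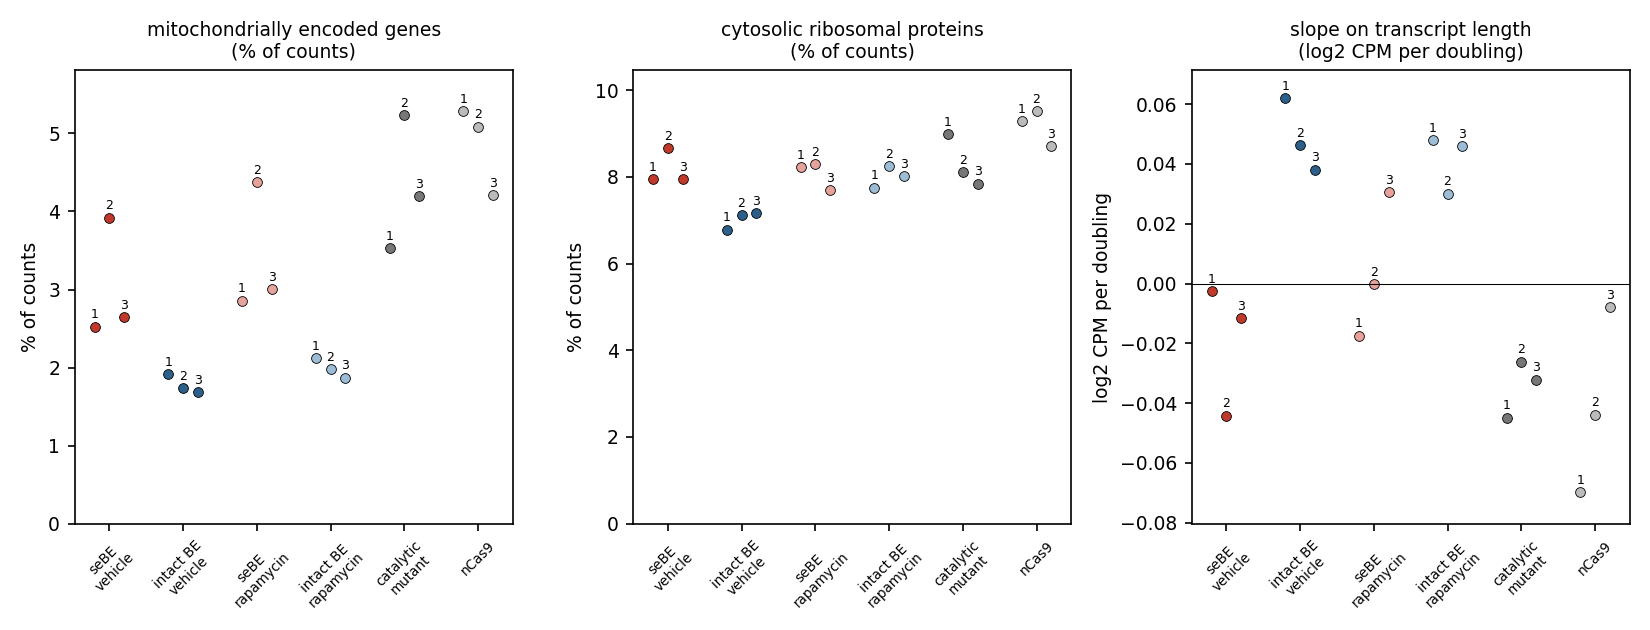
Share of counts from 13 mitochondrially encoded genes (left), share from 79 cytosolic ribosomal protein genes (middle) and slope of log2 CPM on transcript length (right) for each of the 18 libraries, numbered by replicate and coloured by group. The mitochondrial share was 3.03% ± 0.771 in seBE and 1.78% ± 0.12 in intact BE under vehicle, and seBE replicate 2 is the highest of the 6 vehicle libraries in the first and second panel and the lowest in the third.

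Mitochondrially encoded transcripts, which code for the respiratory chain subunits made inside the organelle, were higher in seBE by a ratio of 1.71 in their share of counts, 3.03% ± 0.771 in seBE and 1.78% ± 0.12 in intact BE. All 13 genes had a fold change above 0, with a median log2 fold change of 0.76. Of the 13, 1 passed the test (7.69%, against 1.68% of all genes tested rising). That gene was mt-Nd1, a complex I subunit, with 3675, 5609 and 3852 CPM in seBE, against 2715, 2359 and 2340 CPM in intact BE (log2 fold change 0.83 ± 0.191, adjusted p = 0.0346). The seBE libraries were all higher but spread widely, and mt-Nd1 was not called without seBE replicate 2 or without any 1 of the 3 intact BE libraries. DESeq2 called 7 of the 13, where it called 386 rises and 413 falls among all 14985 genes tested. mt-Co1, at 14632 ± 3768 CPM in seBE and 8659 ± 582 CPM in intact BE, had an adjusted p of 0.0673. Mean levels of 6 of the 13 (mt-Nd3, mt-Nd4l, mt-Co2, mt-Co3, mt-Atp6 and mt-Atp8) were under 6 CPM in both groups. In the rapamycin libraries the share was 3.41% ± 0.837 in seBE and 1.99% ± 0.126 in intact BE (exact permutation p = 0.1) and the median log2 fold change was 0.77.

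Nuclear genes of the same organelle had smaller medians. Of 61 nuclear-encoded respiratory chain subunits 7 (11.5%) rose and 0 fell, with a median of 0.11, against 1.68% of all genes tested rising. Ndufb7, of complex I, had 101, 111 and 93.9 CPM in seBE, against 65.4, 72.8 and 81.1 CPM in intact BE (log2 fold change 0.48 ± 0.104, adjusted p = 0.0089). Of 77 mitochondrial ribosomal proteins 7 (9.09%) rose and 0 fell, with a median of 0.13. Mrpl54 led them, with 61.7, 75.7 and 61.7 CPM in seBE, against 44.5, 42.0 and 50.7 CPM in intact BE (log2 fold change 0.54 ± 0.108, adjusted p = 0.00517). Under rapamycin 16 of these 77 rose, with a median of 0.21, against 2.04% of all genes tested rising in that arm. Without seBE replicate 2, 0 genes of either list were called under vehicle, and after trend removal 3 respiratory genes rose and 3 fell. Long noncoding RNAs and hosts of small nucleolar RNAs, which guide the modification of ribosomal RNA, rose in 4 of 13 cases (30.8%). Their median was 0.36 and all 13 were above 0. Gas5, Snhg5, Snhg12 and Zfas1 were the 4, with Snhg5 at 78.7 ± 9.50 CPM in seBE and 57.8 ± 4.15 CPM in intact BE (adjusted p = 0.0089), and 6 of the 13 rose under rapamycin. None of the 4 was called without seBE replicate 2 or without intact BE replicate 1.

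The cell cycle genes that were called all fell in seBE, and they made up 8.33% of the mitosis list, 6.38% of the DNA replication list and 7.69% of the G1 list, against 2.32% of all genes tested. Of 48 genes of mitosis 4 fell and 0 rose, with a median of -0.13 and 41 below 0. Top2a, the topoisomerase that untangles chromosomes, had 665, 594 and 664 CPM in seBE, against 860, 792 and 786 CPM in intact BE (log2 fold change -0.34 ± 0.0803, adjusted p = 0.0152). Kif11, the motor that separates spindle poles, had 203, 189 and 208 CPM in seBE, against 270, 258 and 248 CPM in intact BE (log2 fold change -0.37 ± 0.0831, adjusted p = 0.012). Ncapg2 and Bub1b were the other 2. Of 47 genes of DNA replication Mcm4, Pola1 and Rrm1 fell, with a median of -0.07 for the list, and of 26 genes of G1 control Rbl1 and Rb1 fell. None of the calls in these 3 lists held without seBE replicate 2, and none held without intact BE replicate 1. Replication-dependent histone genes, whose transcripts mostly lack polyA tails, had a median of 0.51 over 25 genes. Of these edgeR and DESeq2 called 0, and 3 (12%) had an unadjusted p under 0.05, against 18.6% of all genes tested.

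Some genes of amino acid supply and protein folding fell under vehicle, in lists of which 6.06% (ATF4 targets), 19.2% (aminoacyl-tRNA synthetases) and 13.6% (endoplasmic reticulum chaperones) were called lower, against 2.32% of all genes tested. Of 33 tested targets of ATF4, the factor of the amino acid response, 1 rose and 2 fell, with a median of -0.14. Asns, asparagine synthetase, had 107, 100 and 95.2 CPM in seBE, against 132, 137 and 111 CPM in intact BE (log2 fold change -0.33 ± 0.0882, adjusted p = 0.0313). Slc7a1, a transporter of basic amino acids, stood at 175 ± 14.4 CPM in seBE and 228 ± 9.72 CPM in intact BE (adjusted p = 0.00478), and Slc1a5, a glutamine transporter, rose, at 288 ± 42.8 CPM in seBE and 224 ± 6.64 CPM in intact BE (adjusted p = 0.0298). Under rapamycin 16 of the 33 rose and 1 fell, with a median of 0.40, against 2.04% and 2.66% of all genes tested. The difference between the arms passed the test for 5 of them, Asns, Mthfd2, Shmt2, Cth and Gpt2, against 0.187% of all genes tested. Of 26 aminoacyl-tRNA synthetases 5 fell, Eprs, Nars, Dars, Iars and Lars, with log2 fold changes from -0.34 to -0.26. Of 22 chaperones of the endoplasmic reticulum Hsp90b1, Pdia6 and Dnajc3 fell, 21 were below 0 and the median was -0.21. Hsp90b1 had 1103, 1006 and 1145 CPM in seBE, against 1375, 1348 and 1286 CPM in intact BE (log2 fold change -0.30 ± 0.0735, adjusted p = 0.0189). Without seBE replicate 2, 0 genes of the synthetase and chaperone lists were called.

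Among genes that answer DNA damage, uracil in DNA or foreign nucleic acid, 4 were called under vehicle. Of 22 genes of uracil and base excision repair and 8 of mismatch repair 0 were called by edgeR or by DESeq2, with medians of 0.10 and -0.08, and 8 of the 22 (36.4%) and 1 of the 8 (12.5%) had an unadjusted p under 0.05, against 2790 or 18.6% of all genes tested. Ung, the uracil glycosylase that base editors are built to evade, stood at 26.0 ± 1.89 CPM in seBE and 28.2 ± 3.49 CPM in intact BE (adjusted p = 0.744). Of 37 genes of homologous recombination and checkpoints 1 fell (2.7%, near the 2.32% of all genes tested). It was the helicase gene Blm (log2 fold change -0.32 ± 0.0817, adjusted p = 0.0266). Of 36 targets of p53 Psrc1, Pidd1 and Xpc rose (8.33%, against 1.68% of all genes tested), with a list median of -0.0042. These 3 calls and that of Blm were lost without seBE replicate 2 and without intact BE replicate 1. Xpc was lost with any 1 of the 6 libraries left out. The main reporters of p53 activity did not pass, Cdkn1a at 158 ± 3.85 CPM in seBE and 150 ± 2.36 CPM in intact BE (adjusted p = 0.735) and Mdm2 at 142 ± 2.77 CPM in seBE and 137 ± 1.14 CPM in intact BE (adjusted p = 0.779). Of 36 interferon-stimulated genes edgeR called 0 and DESeq2 4, where DESeq2 called 799 of all 14985 genes tested. Their median was 0.15, and 9 (25%) had an unadjusted p under 0.05, against 18.6% of all genes tested. Of 6 genes of host deaminases and editing cofactors both tools called 0, with a median of 0.07 and 1 at an unadjusted p under 0.05. Apobec1, the endogenous gene of the deaminase type from which evoA1 was evolved, stood at 27.0 ± 2.24 CPM in seBE and 24.3 ± 2.87 CPM in intact BE (adjusted p = 0.622). A missing call does not show equal levels. For Cdkn1a the log2 fold change was 0.07 ± 0.0795, for Mdm2 0.06 ± 0.0714 and for Apobec1 0.15 ± 0.133.

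The transcripts of the mouse genes for FKBP12 and the mTOR kinase were close between the constructs. Their relation to the parts of the switchable editor was not tested. Fkbp1a, which codes for FKBP12, had 210, 198 and 213 CPM in seBE, against 211, 206 and 216 CPM in intact BE (log2 fold change -0.03 ± 0.0696, adjusted p = 0.897). Mtor stood at 68.1 ± 2.62 CPM in seBE and 69.4 ± 0.249 CPM in intact BE (adjusted p = 0.928). Of 26 genes of the mTOR complexes and the rapamycin receptor 1 rose (3.85%, against 1.68% of all genes tested). It was the S6 kinase gene Rps6kb2, with 29.5, 33.8 and 31.8 CPM in seBE, against 21.3, 17.7 and 23.2 CPM in intact BE (log2 fold change 0.61 ± 0.145, adjusted p = 0.0165). Rps6kb2 shares exon positions with Coro1b and Ptprcap on the other strand.

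**Figure D4:**
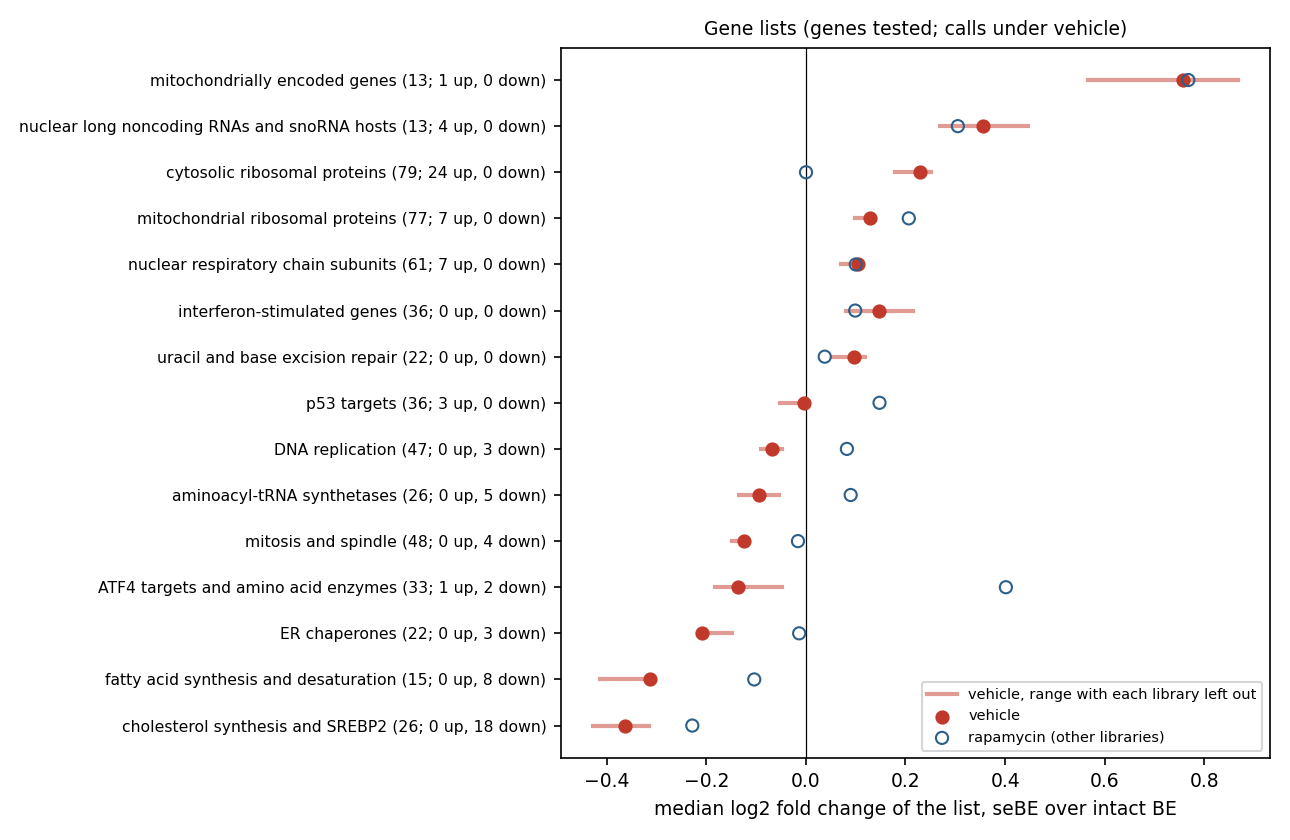
Median log2 fold change, seBE over intact BE, of 15 gene lists under vehicle (filled), its range when each of the 6 vehicle libraries is left out in turn (bar), and under rapamycin in other libraries (open); labels give the genes tested and the calls under vehicle. The 2 lipid lists have the lowest vehicle medians, -0.36 and -0.31, and the mitochondrially encoded genes the highest, 0.76.

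The same constructs under rapamycin gave 305 rises (2.04%) and 398 falls (2.66%), 703 calls in all (4.69%), in 6 libraries that the vehicle comparison did not use. Both comparisons called 173 genes, 171 in the same direction, of which 70 rose and 101 fell. The 171 are 28.6% of the vehicle calls and 24.3% of the rapamycin calls. Of the 598 vehicle calls 92.3% had the same sign under rapamycin, against 63.8% of all genes tested. The difference between the arms itself passed for 28 genes, 0.187% of those tested, and 5 of the 598 vehicle calls were among them. These 5, chosen after their values were seen, were Scpep1, Asns, Nars, Bcat1 and Adam8. Of the 37 genes called under every alternative, 23 were also called in the same direction under rapamycin, Tcf4, Cd28, Ccr2 and Tagap1 among them. Tcf4 stood at 172 ± 1.02 CPM in seBE with rapamycin and 309 ± 5.42 CPM in intact BE with rapamycin, a log2 fold change of -0.84 (adjusted p = 9.06e-09).

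**Figure D5:**
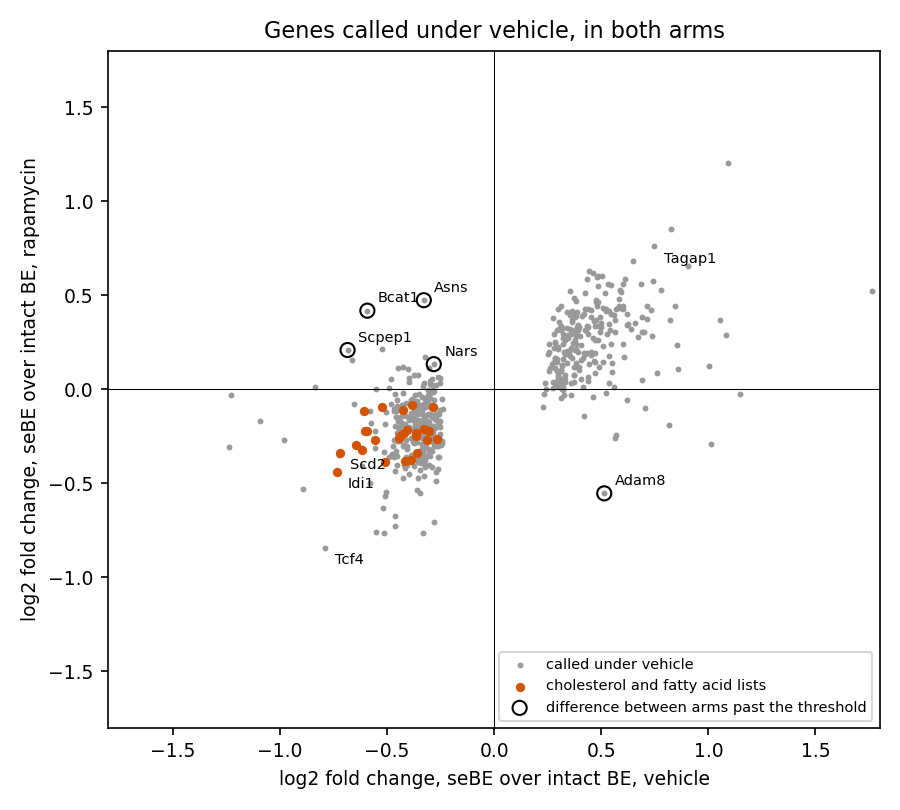
Log2 fold change, seBE over intact BE, under vehicle (x) and under rapamycin (y) for genes called under vehicle; orange points are members of the lipid lists, circles mark the 5 genes whose difference between the arms passed the test, and 6 genes lie beyond 1.8 on an axis. The lipid genes all lie below 0 on both axes, and of the circled genes all but Adam8 lie in the upper left.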

How the data were processed

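The authors deposited a table of raw read counts per gene for 18 mouse RNA-seq libraries in 6 groups of 3. Per the submitters' processing notes, fastp 1.0.1, STAR 2.7.1a, SAMtools 1.9, featureCounts of Subread 2.0.3 and DESeq2 were used, with GRCm39. For the annotation release, the strand setting and reads with several hits, the choice is not given in the sources used here. Library totals were 13835979 to 23284932 counts, and the widest 95% Wilson half-width of a mitochondrial share was 0.0109 percentage points, which covers counting error only.

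Counts were fitted in edgeR 4.0.16 (R 4.3.3) with TMM scaling, filterByExpr and robust quasi-likelihood over all 18 libraries, which share 1 estimate of the spread. This left 14985 genes, and p-values were adjusted over all of them. The standard error is the size of the log2 fold change over the square root of F. GENCODE M21 transcripts of GRCm38 gave a length and GC content for 97.4% of the genes. Library shares were compared by exact permutation tests in SciPy 1.17.1. The script was tested on simulated counts. Alternatives were DESeq2 1.42.0, RLE scaling, other filters, the compared libraries alone, the replicate number as a block, removal of a length and GC trend, leaving out mitochondrial genes with the most abundant gene, and leaving out each library.

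Genes were named by rule: the 15 largest rises and falls among called genes whose groups did not overlap and whose higher group averaged 5 CPM or more, up to 4 called genes of each of 49 lists by adjusted p, and 10 fixed genes. Members of the lipid and mitochondrial lists and genes called under every alternative are described as well. The members and lists were chosen with earlier results of these data known. Some items that the rule names are not reported here.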

Additional observations from a re-analysis of the deposited data

Results flagged for a closer look

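For 3 named genes the difference between seBE and intact BE itself differed between the rapamycin and vehicle arms, tested as an interaction in edgeR's quasi-likelihood fit over all genes. Scpep1, a serine carboxypeptidase gene, had log2 fold changes of 0.21 under rapamycin and -0.68 under vehicle, a difference of 0.89 (adjusted p = 0.00564). Asns, asparagine synthetase, had 0.47 under rapamycin and -0.33 under vehicle, a difference of 0.80 (adjusted p = 0.00176). Nars, the asparaginyl-tRNA synthetase gene, had 0.13 under rapamycin and -0.28 under vehicle, a difference of 0.42 (adjusted p = 0.0468).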

How the results depend on the processing

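Against 251 rises and 347 falls (598 calls) under vehicle, DESeq2 gave 386 rises and 413 falls, no filter 452 and 493 (945 calls), the compared libraries alone 913 and 924 (1837), and trend removal 126 and 205 (331). Leaving out single libraries gave 52 to 518 calls, 8 to 211 rises and 41 to 307 falls. The lowest counts came without seBE replicate 2 (52 calls, 15.4% of them rises) and without intact BE replicate 1 (54, 24.1%), against 42.0% rises in all. Of the 102 named calls, 18 held under all 15 alternatives, 67 with the trend removed, 19 without seBE replicate 2 and 25 without intact BE replicate 1. Cyba alone changed sign, to -0.00983 with the trend removed and -0.00845 with the replicate block as well. In the rapamycin comparison, 703 calls became 312 with its libraries alone, and 256 to 1114 with single libraries left out. The 28 differences between arms became 61 in DESeq2, 66 with no filter, 62 with the trend removed and 11 to 56 with single libraries left out. The causes were not tested.

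The replicate numbers were not taken to pair the libraries, since the deviations of same-numbered vehicle libraries had correlations of 0.0675, 0.166 and -0.178, and seBE replicates 2 and 3 correlated best with another number. Under rapamycin the same-numbered correlations were -0.014, 0.123 and 0.251, where seBE replicates 2 and 3 correlated best with their own number and seBE replicate 1 with another. Replicate 2 had the highest mitochondrial share in seBE with vehicle, in seBE with rapamycin and in the catalytic mutant, but not in the other 3 groups. With the replicate block there were 1173 vehicle calls, 494 rises and 679 falls, 1085 rapamycin calls and 65 differences between arms. With block and trend removal together there were 1196 rapamycin calls and 168 differences between arms.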
